A study of Bos taurus with 16 samples.

Results

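A list of 2 acute phase genes, given by Ensembl identifier, was looked up among the 27607 genes of the count files of bovine monocyte-derived macrophages (MDMs). Of the listed identifiers, 1 was found, ENSBTAG00000017280, which the list pairs with C3. The other, ENSBTAG00000022396, which the list pairs with SAA3, is not analysed here. None of the 27607 identifiers (0) could be found in the reference table of 37063 named genes, so the pairing of ENSBTAG00000017280 with C3 could not be checked and the gene is reported by its identifier.

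The 16 libraries came from 4 Holstein animals (labelled Taurine; numbers 1, 3, 20 and 50) and 4 Gir animals (labelled Indicine; numbers 2, 5, 6 and 7), which per the study were 6 to 12 months old. Blood monocytes of each animal were grown into macrophages for 11 days in medium with fetal bovine serum, and were then kept for 48 hours either in medium alone (unstimulated) or with 100 ng/ml lipopolysaccharide (LPS) of Escherichia coli O111:B4. Each animal gave 1 unstimulated and 1 LPS treated library, so the replicate is the animal. The breed of each library is that of its label. The study's text on LPS treated MDMs names Gir, not Holstein, as the breed with more C3. Whether the library labels or the sign in that text is turned could not be settled from the files. The study also measured C3 by RT-qPCR in MDMs and buffy coat cells, which is not weighed here. Turned labels would affect every breed contrast and not this gene alone. Which breed a value belongs to, and each direction between Holstein and Gir given here, therefore hold only as far as the labels do, while the ratio of LPS treated to unstimulated cells within an animal does not depend on them. The libraries held from 7362247 to 10296054 counts assigned to genes, with a median of 8302642. On the first principal component of all genes, Holstein animal 3 at rest was placed at 31.6, whereas the other 3 unstimulated Holstein libraries lay between -83.1 and -67.5. The unstimulated Gir libraries were also spread, with animals 5 and 6 at 62.9 and 53.9, beside the LPS treated Gir libraries at 54.6 to 71.5, and animals 2 and 7 at -47.3 and -18.9. The macrophage, fibroblast, hepatocyte and lymphocyte markers set aside for a check of the cell type are listed by symbol and could not be matched to identifiers, so the makeup of the cultures was not checked. In bulk RNA, a change in the cells present and a change in RNA per cell cannot be told apart.

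As background, C3 is the central component of complement, the plasma cascade that marks microbes for uptake. Its cleavage yields C3b, which binds covalently to microbial surfaces and is recognized by receptors of phagocytes, and C3a, a small fragment that attracts and activates leukocytes. Most circulating C3 is made by the liver as part of the acute phase response, and macrophages also make it at sites of inflammation. LPS is sensed by macrophages through TLR4 and its co-receptor CD14. Whether ENSBTAG00000017280 behaves in these cultures as a gene of that class was the question, asked as LPS against unstimulated cells of the same animal and as Holstein against Gir.

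ENSBTAG00000017280 was well measured in every library. It had between 711 and 8497 counts, and levels are given as CPM, the counts scaled to a library total of 1000000. In unstimulated Gir MDMs it was at 135, 314, 96.6 and 234 CPM in animals 2, 5, 6 and 7. In LPS treated Gir MDMs the same animals had 171, 359, 97.9 and 226 CPM. Each Gir animal thus kept its place with LPS, with animal 5 highest and animal 6 lowest under both conditions.

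In unstimulated Holstein MDMs the gene was at 118, 190, 396 and 322 CPM in animals 1, 3, 20 and 50. In LPS treated Holstein MDMs it was at 165, 360, 729 and 825 CPM in the same order. Animal 1 was lowest under both conditions, and the highest value passed from animal 20 to animal 50. The LPS treated libraries of Holstein animals 20 and 50 stood above all others, while that of Holstein animal 1 lay inside the Gir range. In the 95% counting intervals (exact Clopper-Pearson, counting error only) the value of Gir animal 6 at rest lay between 89.6 and 103.9 CPM and that of LPS treated Holstein animal 50 between 807.8 and 843.0 CPM. Some pairs of libraries had overlapping intervals, for example LPS treated Holstein animal 3 (346.6 to 373.4 CPM) and Gir animal 5 (346.7 to 371.6 CPM).

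**Figure D1:**
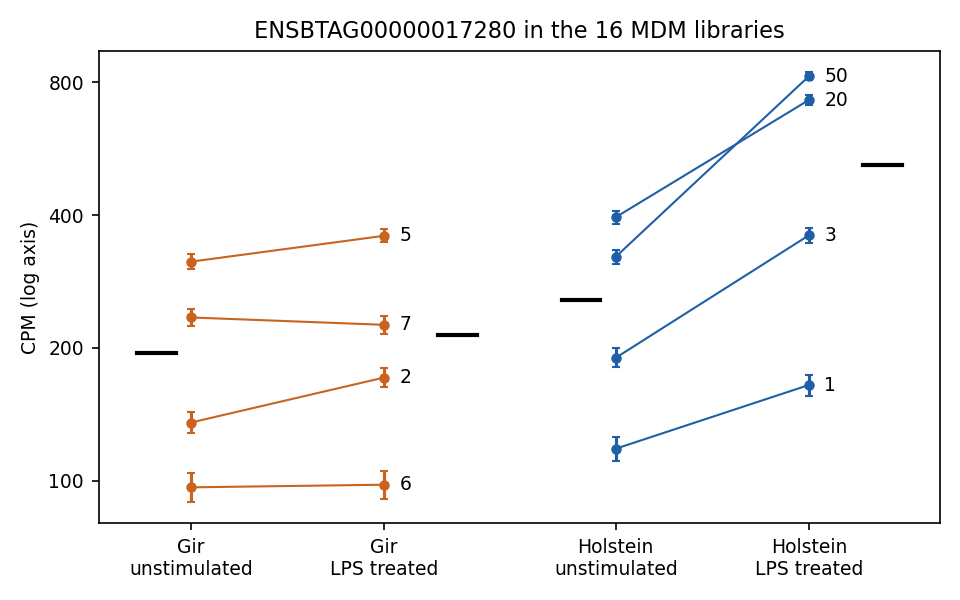
CPM of ENSBTAG00000017280 (log axis) in each library, with a line joining the unstimulated and LPS treated library of an animal, numbers naming the animals, error bars giving 95% counting intervals, and black bars giving group means. All 4 Holstein lines climb, to between 165 and 825 CPM, with ratios from 1.39 to 2.56, while the Gir ratios run from 0.962 to 1.26.

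From low to high, the group means were 195 ± 98.1 CPM in unstimulated Gir, 213 ± 110 CPM in LPS treated Gir, 256 ± 125 CPM in unstimulated Holstein and 520 ± 310 CPM in Holstein MDMs after LPS (mean ± SD of 4 animals each). Neighbours in this order overlapped in range. On the log2 scale they were 0.12, 0.27 and 0.91 apart, beside SDs between animals of up to 0.78, 0.78 and 1.07. The first and the last of these pairs of groups hold the same animals, whose differences within an animal follow. Within a group, the highest animal was between 3.25-fold and 5.01-fold above the lowest.

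Set against its own unstimulated cells, each animal gave a ratio of LPS treated to unstimulated CPM. The ratio was 1.39 (95% counting interval 1.28 to 1.51) in Holstein animal 1, 1.84 (1.77 to 1.92) in animal 20, 1.90 (1.78 to 2.02) in animal 3 and 2.56 (2.46 to 2.68) in animal 50. In Gir it was 1.26 (1.18 to 1.36) in animal 2, 1.15 (1.09 to 1.21) in animal 5, 1.01 (0.913 to 1.12) in animal 6 and 0.962 (0.902 to 1.03) in animal 7. All 4 Holstein intervals and those of Gir animals 2 and 5 lay above 1, and those of Gir animals 6 and 7 included 1.

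The mean log2 ratio over the 8 animals was 0.52 ± 0.49 (SD, n = 8), with higher values under LPS in 7 of 8 animals (exact two-sided sign-flip permutation test, p = 0.0234, and 0.0857 after Benjamini-Hochberg adjustment over the 6 exact tests made). Of the 12968 genes that reached 1 CPM in 4 or more of the 16 libraries, 6.1% were higher with LPS in at least 7 of 8 animals. In Holstein the mean log2 ratio was 0.91 ± 0.36 and in Gir 0.12 ± 0.18 (SD, n = 4 each), and the Gir mean was 0.05 without animal 2, 0.18 without animal 7 and 0.27 with the TMM scaling described next. The exact sign-flip permutation test of 4 animals gave p = 0.125 in Holstein, which is the smallest it can give, and p = 0.375 in Gir (0.250 and 0.450 after the adjustment over 6 tests). All 4 Holstein animals had higher CPM with LPS, as did 7.4% of the 12968 genes.

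These ratios use library totals, and with them the median gene lay at -0.19 in Holstein and -0.15 in Gir on the log2 scale. TMM scaling, which sets libraries by a trimmed mean of log ratios, moved the median gene to -0.04 and -0.01. The TMM factors went with the stimulus, from 0.979 to 1.11 in unstimulated and 0.874 to 0.979 in LPS treated Gir, and from 1.04 to 1.13 and 0.916 to 1.05 in Holstein. Relative to the median gene of the same animal, ENSBTAG00000017280 was 1.10 higher with LPS in Holstein and 0.28 higher in Gir on the log2 scale. The sign in Gir animal 7 depended on this scaling, with a log2 ratio of -0.06 by library totals and 0.07 by TMM. With TMM the gene was higher under LPS in 8 of 8 animals (exact sign-flip permutation test, p = 0.00781, the smallest that 8 animals allow), as were 5.37% of the genes.

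The Holstein ratios did not overlap the Gir ratios. The lowest in Holstein was 0.48 in animal 1 and the highest in Gir was 0.34 in animal 2, on the log2 scale. The mean ratios of the breeds were 0.79 apart, or 1.72-fold (exact permutation test, two-sided, with breed labels exchanged, p = 0.0286, the smallest that 4 animals against 4 allow, and 0.0857 after adjustment over the 6 tests). A ratio above every Gir animal in every Holstein animal was seen in 1.95% of the 12968 genes, and the opposite in 1.84%. With TMM the ranges also did not overlap, the lowest Holstein ratio being 0.58 and the highest Gir ratio 0.52, as in 1.8% of genes. Without Holstein animal 3, whose unstimulated library stood apart, the difference was 0.78 (exact permutation p = 0.0571, the smallest that 3 against 4 can give). Leaving out Gir animal 5 or Gir animal 6, whose unstimulated libraries lay near the LPS treated ones, gave 0.81 and 0.75, with the same p.

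**Figure D2:**
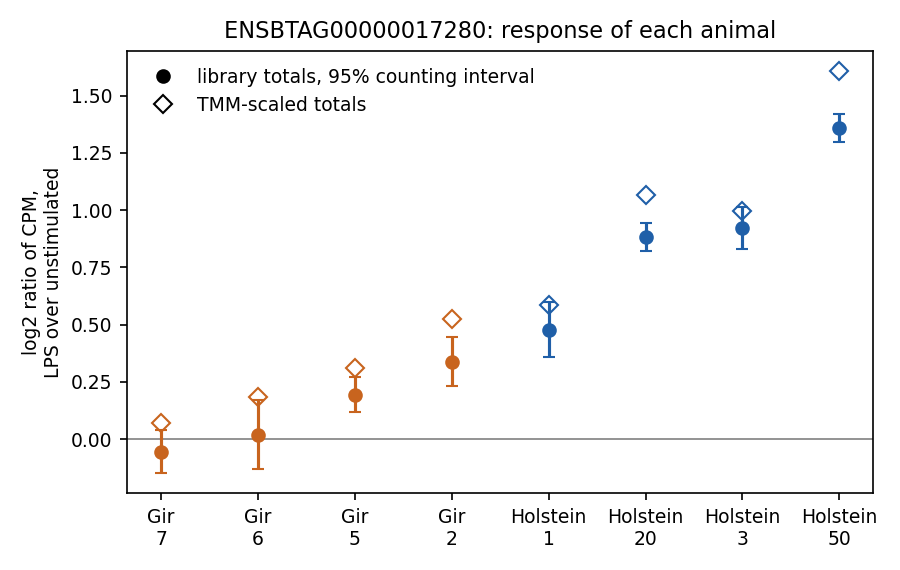
Log2 ratio of CPM of ENSBTAG00000017280, LPS over unstimulated, in each animal (orange, Gir; blue, Holstein), by library totals with 95% counting intervals (filled points) and by TMM-scaled totals (open diamonds). The 4 Gir animals lie between -0.06 and 0.34 and the 4 Holstein animals between 0.48 and 1.36 by library totals.

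The SD of the log2 ratio over 4 animals was 0.36 in Holstein, larger than in 61.7% of genes, and 0.18 in Gir, larger than in 15.9% of genes. The median gene had 0.29 in Holstein and 0.35 in Gir. The difference between the SDs was not tested.

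In the fit across all genes (edgeR's quasi-likelihood test), a gene was called when its Benjamini-Hochberg adjusted p (FDR) was below 0.05 and its level moved by 1 or more on the log2 scale. In Holstein the log2 fold change with LPS was 1.25 (standard error 0.57, edgeR's adjusted p = 0.752) when libraries were treated as unpaired. Among the 12400 genes of that fit, 0 were called (0.0%) and 841 had an unadjusted p below 0.05. DESeq2's Wald test, which was run with its own filter on low counts in place of the CPM limit, called 162 of 19109 genes. DESeq2's totals, here and below, count the genes with a p-value before that filter. With the animal as a block, which compares the paired libraries of an animal, the log2 fold change was 1.11 (standard error 0.17, edgeR's adjusted p = 0.0203). ENSBTAG00000017280 was then called as risen, among 3.81% of genes called. The call was lost without animal 1 (log2 fold change 1.22, edgeR's adjusted p = 0.0638), without animal 20 (1.09, adjusted p = 0.119) and without animal 50 (0.92, under the limit of 1, adjusted p = 0.0479), while the estimate stayed positive. Over all genes the number called fell from 472 to 108, 8 and 164 in these fits and was 1239 without animal 3.

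In Gir the log2 fold change with LPS was 0.27 (standard error 0.45, edgeR's adjusted p = 0.830). With the animal as a block it was 0.27 (standard error 0.12, edgeR's adjusted p = 0.336). Neither fit called the gene. The unpaired fit called 0 of 11913 genes (0.0%), with 1393 at an unadjusted p under 0.05, DESeq2 with its own filter called 352 of 18564, and the fit with the block called 0.218%, or 26 genes, and 57, 5, 191 and 0 genes without animals 2, 5, 6 and 7.

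Over both breeds, with each animal as its own control, the log2 fold change with LPS was 0.67 (standard error 0.16, edgeR's adjusted p = 0.0233). It passed the FDR but not the limit on the fold change, which 5.47% of 12968 genes passed together. Without Holstein animal 20 its adjusted p was 0.0652, and without any other animal it stayed between 0.0203 and 0.0497. Treating the 16 libraries as unpaired gave 0.86 (standard error 0.44, edgeR's adjusted p = 0.383).

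**Figure D3:**
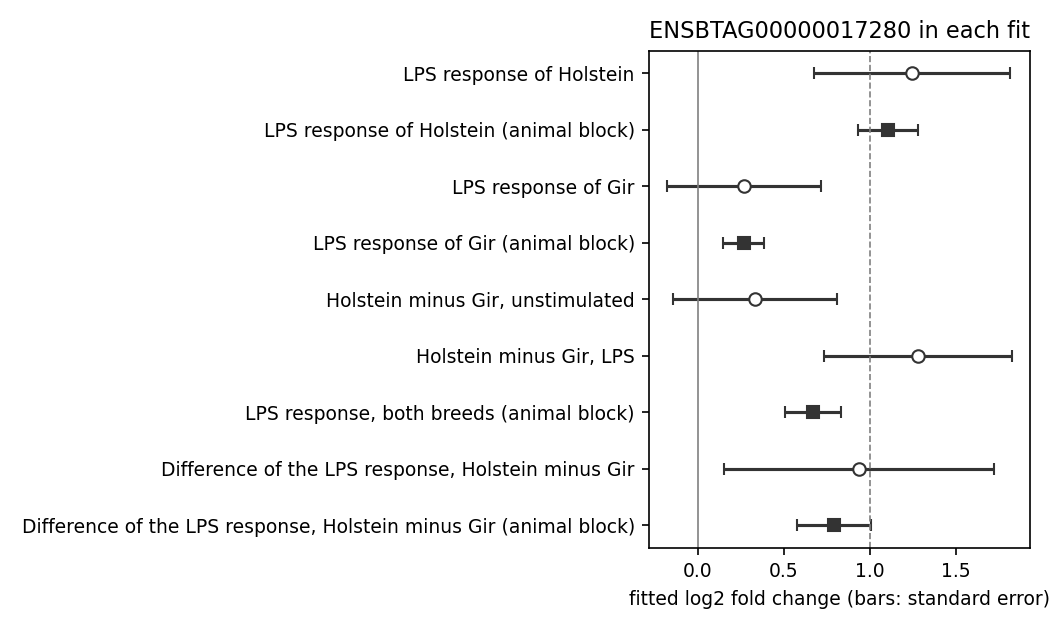
Fitted log2 fold change of ENSBTAG00000017280 in each comparison, with bars of 1 standard error. Filled squares are fits with the animal as a block and open circles fits without it, the dashed line marks the limit of 1, and the block narrows the Holstein error from 0.57 to 0.17 with estimates of 1.25 and 1.11.

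Between the breeds at rest, ENSBTAG00000017280 was not called. Its log2 fold change, Holstein minus Gir, was 0.33 (standard error 0.47, edgeR's adjusted p = 0.814), in a contrast that called 0.318% of 12565 genes, and the unstimulated values of the breeds overlapped from 118 to 314 CPM. The difference of mean log2 CPM was 0.39 (exact two-sided permutation test, p = 0.486 and 0.486 after adjustment). Single animals moved both values, the fitted one to 0.02 without Holstein animal 20 and 0.68 without Gir animal 5, and the difference of means to 0.10 without Gir animal 6 and 0.71 without Holstein animal 1.

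Between LPS treated MDMs, it was 1.28 higher in the libraries labelled Holstein on the log2 scale (standard error 0.55), a direction that carries the doubt about the labels given above, with an unadjusted p of 0.0419 and an adjusted p of 0.215 by edgeR, and was not called in a contrast that called 7.35% of 11986 genes. Here 3 of 4 Holstein libraries lay above every Gir library, by a narrow margin in 1 case, with 359.8 CPM in Holstein animal 3 beside 359.0 CPM in Gir animal 5. With TMM-scaled totals, the scaling of the fit, these were 361.9 and 393.2 CPM, so that 2 of 4 Holstein libraries lay above every Gir library. Holstein animal 1, at 165 CPM, lay below 3 of the 4 Gir animals. The exact permutation test of log2 CPM gave a difference of 1.18 and p = 0.171 (0.257 after adjustment). Over the alternatives tried, edgeR's or DESeq2's adjusted p lay between 0.0664, without Holstein animal 1, and 0.426.

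Whether Holstein and Gir differed in their response was also tested across all genes. The Holstein response exceeded the Gir response by 0.94 on the log2 scale (standard error 0.79, edgeR's adjusted p = 1.00), and by 0.79 with the animal as a block (standard error 0.22, edgeR's unadjusted p = 0.00470, adjusted p = 0.507). In both fits 0 of 12968 genes were called (0.0%). Before adjustment, 249 genes without and 1074 with the block had p below 0.05, and DESeq2 with its own filter called 2 of 19985 and 13 of 20045 genes. With the block ENSBTAG00000017280 was in place 113 by p-value. DESeq2 with the block gave 0.81 with an adjusted p of 0.0261, which passed the FDR but not the limit on the fold change. The comparisons share libraries, so the Holstein response, the contrast of LPS treated MDMs and the difference in response are not independent of each other.

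Most of the variation of ENSBTAG00000017280 lay between animals of a breed. Of the sum of squares of its log2 CPM over the 16 libraries, 66.3% lay between animals within breed, 18.9% between breeds, 8.22% between stimuli and 4.74% in the difference of the stimulus between breeds. The median gene had 49.8%, 10.5%, 8.74% and 1.49%. The remaining share, the part of an animal's pair that these terms leave, was 1.85% beside 13.2% in the median gene, and 1.72% of genes had a smaller one. These shares are a description.

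**Figure D4:**
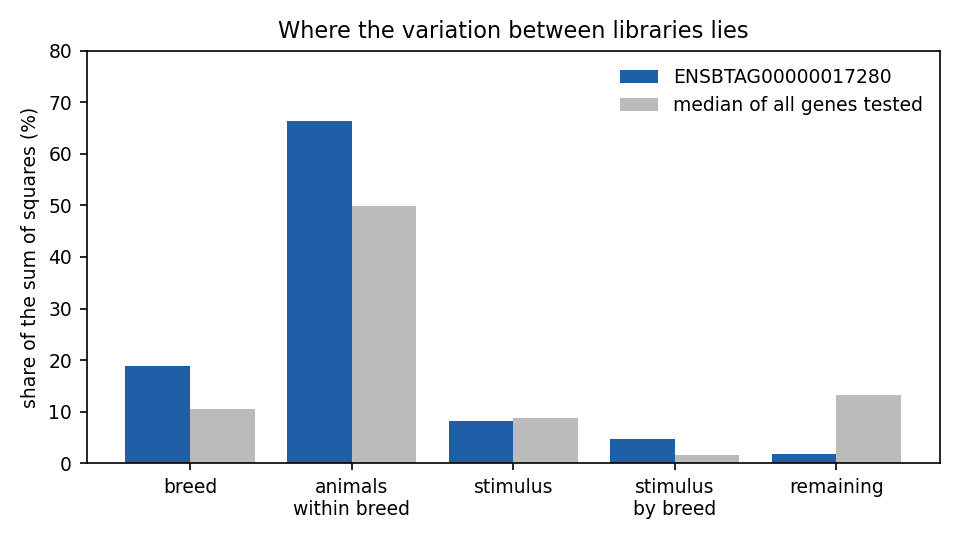
Shares of the sum of squares of log2 CPM over 16 libraries for ENSBTAG00000017280 (blue) and the median of 12968 genes (grey). Animals within breed hold 66.3% and the remaining part 1.85% for this gene.

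An animal's level at rest went with its level under LPS. Over the 8 animals, log2 CPM of unstimulated and LPS treated libraries had a Pearson's r of 0.913 (exact permutation test, p = 0.00198) and a Spearman's rho of 0.905 (exact permutation test, p = 0.00456). It was the 1 relation of this kind computed, and was chosen after the values had been seen. Without the 2 animals farthest from the median at rest, Holstein animal 20 and Gir animal 6, r was 0.817 (exact permutation test, p = 0.0333, n = 6).

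Among the other genes, ENSBTAG00000011403 had the pattern most like it, with a Pearson's r of 0.851 of log2 CPM over the 16 libraries, which share animals, and no symbol could be given for it. The next gene had 0.845, the median gene -0.011, and 4 genes passed 0.8. ENSBTAG00000011403 was at 51.0 ± 20.1 CPM in unstimulated and 47.7 ± 16.6 CPM in LPS treated Gir MDMs, and at 58.9 ± 9.59 and 88.3 ± 32.1 CPM in Holstein MDMs (SD, n = 4 each). Its log2 ratio of LPS to unstimulated CPM was 0.52 ± 0.35 in Holstein and -0.07 ± 0.19 in Gir, and its highest values, 115 and 117 CPM, were in the LPS treated libraries of Holstein animals 20 and 50, as for ENSBTAG00000017280.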

How the data were processed

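The authors deposited raw counts per Ensembl gene for 16 MDM libraries, without normalization. Per the paper, 100 bp paired-end reads of a stranded mRNA kit were aligned to ARS-UCD1.2, whereas the submitters' processing notes name UMD3.1. STAR 2.6.0c and HTSeq 0.10.0 were used on uniquely mapped reads, and the strand option is not given in the sources used here. The 5 counter rows were left out and made up 18.4% to 23.2% of counts and counters (a repeated counter taken once).

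Genes that reached 1 CPM in 4 or more libraries were tested with TMM scaling and edgeR 4.0.16 (glmQLFit, glmQLFTest) in R 4.3.3, on the libraries of each contrast, and p-values were adjusted over all genes tested. Standard errors are the log2 fold change over the square root of F. Log2 ratios used CPM plus 0.5 and exact permutation tests (scipy 1.17.1). The alternatives were DESeq2 1.42.0 (its size factors in edgeR, or its Wald test on genes with any count, under its independent filtering), no filter, the animal block and leaving out each animal. Both libraries of a number come from the same animal. Their deviations from the group means correlated by 0.645 to 0.822 in Holstein and by only 0.054 to 0.303 in Gir. No 2 libraries of a group agreed within sampling noise (lowest chi-square per degree of freedom 17.9). The fits were also run on counts made with known changes, with an animal effect only for the fits with the block. The outcome is not given here.

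The members and lists were chosen with earlier results of these data known. The gene most like the member was taken by the highest Pearson's r of log2 CPM (prior count 2) over 16 libraries, 1 gene since no symbols matched. The lists of related acute phase and complement genes and of cell type markers could not be applied for that reason, and the planned relation of the 2 genes was not run.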

Additional observations from a re-analysis of the deposited data

Results flagged for a closer look

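ENSBTAG00000017280 had a mean log2 ratio of LPS to unstimulated CPM that was 0.79 higher in the animals labelled Holstein than in those labelled Gir (4 animals against 4, exact permutation test, two-sided, p = 0.0286, and 0.0857 after adjustment over 6 tests). Which breed is the higher rests on the labels, and the study's text on C3 in LPS treated MDMs names the other. Turned labels would affect every breed contrast. The ratio was higher in 4 of 4 Holstein animals than in any Gir animal, and 1.95% of genes showed this. The test across all genes did not call it (edgeR's adjusted p = 1.00, and 0.507 with the animal as a block). TMM factors were lower in LPS treated libraries of both breeds, and with them the difference was 0.79 as well.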

How the results depend on the processing

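Of 130 alternatives over 15 results on ENSBTAG00000017280, 117 kept their direction and side of the threshold and none reversed it. Some of the 117 could not have changed side. The exact sign-flip tests within a breed cannot give p below 0.125, or below 0.25 with an animal left out. The exact permutation tests of breed differences in CPM cannot give p below 0.0571 with an animal left out. DESeq2 with the block was entered under both the unpaired and the block result. The response of Holstein was called with the replicate block (1.11, edgeR's adjusted p = 0.0203) and by DESeq2 with the replicate block (1.10, adjusted p = 3.93e-07), and not without a block. With the block and 1 Holstein animal left out it lay between 0.92 and 1.22, with adjusted p from 0.00581 to 0.119, and 3 of 4 such fits lost the call. The block changed no other call of this gene, as the other estimates were under the limit of 1. It did decide the side of the FDR over both breeds (edgeR's adjusted p = 0.0233 with and 0.383 without it). For the difference in response, DESeq2's adjusted p with the block was 0.0261. The breed difference in the within-animal ratio lay between 0.64 and 0.93 with 1 animal left out, each with an exact permutation p of 0.0571, the smallest that 3 against 4 can give, so p could not pass 0.05 there. The fits that combined the block with leaving out an animal were added after the data were seen. The lowest count of this gene was 711, and each breed had 4 animals.

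Numbers of genes called moved more. DESeq2's test, in which both the test and the filter on low counts differed from edgeR's, called 162 in Holstein, 352 in Gir, 333 between breeds at rest (40 by edgeR), 1412 between LPS treated MDMs (881 by edgeR) and 2 for the difference in response. With the block the numbers were 472 and 26 by edgeR, and 591, 310 and 13 by DESeq2, and edgeR's ranged from 8 to 1239 for Holstein and from 0 to 191 for Gir when 1 animal was left out. The response over both breeds had 709 with and 128 without the block, and between 416 and 854 with 1 animal left out, among them 463, 442 and 416 without Holstein animals 1, 20 and 50. The contrast at rest had between 12 and 49 with 1 animal left out, and Gir had 1 and 33 without animals 5 and 6.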
